A study of Homo sapiens with 3 samples.

Results

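The genes described here are 32 genes of sterol and fatty acid synthesis, chosen by symbol from the count tables of 3 human prostate cancer cell lines. All 32 were found once each among the 58735 annotated genes, and all 32 were among the 18025 genes with a depth-scaled count (CPM) of at least 1 in some library. PC3, an established line from a bone metastasis, and DU145, an established line from a brain metastasis, stand for castration-resistant prostate cancer (CRPC) in the series design. LNCAP, an established androgen-responsive line taken from a lymph node deposit, stands for androgen-dependent prostate cancer (ADPC). Each line gave 1 library of total RNA, and no treatment, time point or genetic change is listed for any of them. All lines were grown with fetal bovine serum, and the labels name several media without saying which line received which, so medium and line cannot be told apart. With 1 library per line no difference has a replicate check, and each statement compares these libraries.

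Cells make cholesterol from acetyl-CoA through mevalonate, isoprenoid pyrophosphates and squalene, and they make fatty acids from the same acetyl-CoA through malonyl-CoA. The transcription factors SREBP1 and SREBP2, encoded by SREBF1 and SREBF2, are held in the endoplasmic reticulum with SCAP while sterols are plentiful, and move to the nucleus and switch on most of these genes when sterols run short. In prostate tissue lipid synthesis is known to be driven by androgen as well, and fatty acid synthase is known for its high level in prostate cancer.

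Part of this control sits in the promoters, so the sequences of some of these were read first. RefSeq promoter windows (GRCh38.p14, 250 bases before and 50 after each start) were used for 28 of the 32 genes, all but ACAT2, FASN, SQLE and FDFT1. For SREBP a single string, TCACNCCAC (N being any base), was searched on both strands. SREBP sites written otherwise or lying outside these windows were not looked for. The string was found in 1 of the 28, SREBF2 itself. It was found in 1.39% of all 27305 genes in the table and 1.42% of the 11103 expressed protein-coding genes with a window. The stretch is shown because it is the only match, with the motif in capitals, at chr22:41832927-41833025 on the + strand.

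SREBF2: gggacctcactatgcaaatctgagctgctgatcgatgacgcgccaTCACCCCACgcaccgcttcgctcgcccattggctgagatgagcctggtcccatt

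The CCAAT box (CCAAT, bound by NF-Y) was found in 22 of the 28 genes, or 78.6%, against 42.8% of the expressed protein-coding genes and 39.7% of all genes in the table. The GC box (GGGCGG, bound by SP1) was found in 27 of the 28, or 96.4%, against 75.7% of the expressed protein-coding genes and 48.3% of all genes in the table. The E-box (CANNTG) was found in 20 of the 28, or 71.4%, against 67.8% of the expressed protein-coding genes and 73.1% of all genes in the table. All were searched on both strands, a gene counted when any of its windows held the motif, and the reverse of a CCAAT box can overlap an E-box. Below are the 120 bases before the start of the 4 genes with a window that differed most between PC3 and DU145 (IDI1, ELOVL6, HMGCS1 and INSIG1) and of the 2 that differed least (PMVK and NSDHL). Capitals mark a match to any of the 4 motifs on either strand, and each sequence runs towards the start of its gene. They lie at chr10:1049120-1049239 (- strand), chr4:110198616-110198735 (- strand), chr5:43313413-43313532 (- strand), chr7:155297758-155297877 (+ strand), chr1:154936720-154936839 (- strand) and chrX:152830943-152831062 (+ strand), in the order shown.

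IDI1: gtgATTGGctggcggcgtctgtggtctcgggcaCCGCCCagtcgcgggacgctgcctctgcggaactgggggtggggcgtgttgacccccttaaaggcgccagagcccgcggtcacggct

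ELOVL6: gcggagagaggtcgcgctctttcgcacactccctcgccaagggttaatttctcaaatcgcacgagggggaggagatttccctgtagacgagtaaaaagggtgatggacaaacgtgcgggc

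HMGCS1: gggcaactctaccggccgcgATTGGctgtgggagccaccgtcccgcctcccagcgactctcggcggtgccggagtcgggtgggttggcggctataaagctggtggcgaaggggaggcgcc

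INSIG1: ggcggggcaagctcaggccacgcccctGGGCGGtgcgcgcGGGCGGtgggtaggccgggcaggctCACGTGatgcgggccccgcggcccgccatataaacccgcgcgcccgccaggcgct

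PMVK: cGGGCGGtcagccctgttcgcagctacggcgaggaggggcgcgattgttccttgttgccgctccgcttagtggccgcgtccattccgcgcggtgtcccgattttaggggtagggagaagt

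NSDHL: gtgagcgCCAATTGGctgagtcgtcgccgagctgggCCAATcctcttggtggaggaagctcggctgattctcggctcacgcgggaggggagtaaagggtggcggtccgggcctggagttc

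In these stretches IDI1 and HMGCS1 each held 1 CCAAT box, NSDHL held 3 matches to it and ELOVL6 held none of the 4 motifs. The full windows held further matches, among them a GC box for ELOVL6 and a CCAAT box for INSIG1. Whether any of the motifs goes with the differences between libraries was not tested.

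Across the 32 genes PC3 was mostly the lowest library and DU145 mostly the highest. PC3 was lowest for 24 of the 32 genes, against 34.2% of all genes tested. DU145 was highest for 23 of them, against 31.2% of all genes tested. The full order DU145 above LNCAP above PC3 held for 19 of the 32 genes, against 14.1% of all genes tested. LNCAP was highest for 8 genes, against 37.0% of all genes tested, and PC3 was highest for 1, ACSS2, against 31.9%. DU145 was lowest for 3 genes, against 31.2% of all genes tested, and LNCAP for 5, against 34.6%. These orders compare measured levels, and for some genes neighbouring levels did not differ beyond counting error, as said below.

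Levels are given as CPM of counts scaled with TMM factors (normalised CPM), and ratios with an exact 95% counting interval. A gene was called when the ratio, taken with 0.5 added counts, reached 2-fold either way and its interval excluded a ratio of 1. Strand use and the treatment of shared reads in the authors' counting are not known, so the values of 13 of the 32 genes are uncertain: a gene with at least 10% of their counts overlaps ACAT2, ACSS2, FADS1, FADS2, FDPS, GGPS1, MVK, SREBF1, STARD4 and TM7SF2, and CYP51A1, HSD17B7 and SCD have pseudogenes of their name. The lowest count of any of the 32 genes was 154, 367 and 267 in PC3, DU145 and LNCAP, so counting error was small. The spread between cultures of 1 line was not measured. The libraries held 15319045, 15878546 and 15393103 counts in PC3, DU145 and LNCAP, of which mitochondrial genes took 4.35%, 5.6% and 7.97%. KLK3, which encodes prostate-specific antigen, had no counts in PC3 or DU145 and stood at 2271 CPM in LNCAP, and HOXB13 stood at 387 CPM in PC3, 0 in DU145 and 329 CPM in LNCAP. The keratin genes KRT8 and KRT18 and the epithelial adhesion gene EPCAM had counts in every library, with EPCAM at 7.52, 69.7 and 61.7 CPM in PC3, DU145 and LNCAP. The summed level of 5 leukocyte markers was 0.851, 7.47 and 0.768 CPM in PC3, DU145 and LNCAP, that of 4 endothelial markers was 20.35, 1.53 and 11 CPM, and that of 4 adipocyte markers was 5.1, 0.192 and 3.9 CPM. Single genes made up most of these sums, CD79A at 6.06 CPM in DU145, PECAM1 at 20.1 CPM in PC3, VWF at 9.21 CPM in LNCAP, FABP4 at 3.86 CPM in PC3 and PLIN1 at 3.9 CPM in LNCAP. ADIPOQ, LEP and CD3E had no counts in any library. In such bulk RNA fewer cells making a transcript and less of it per cell cannot be told apart.

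**Figure D1:**
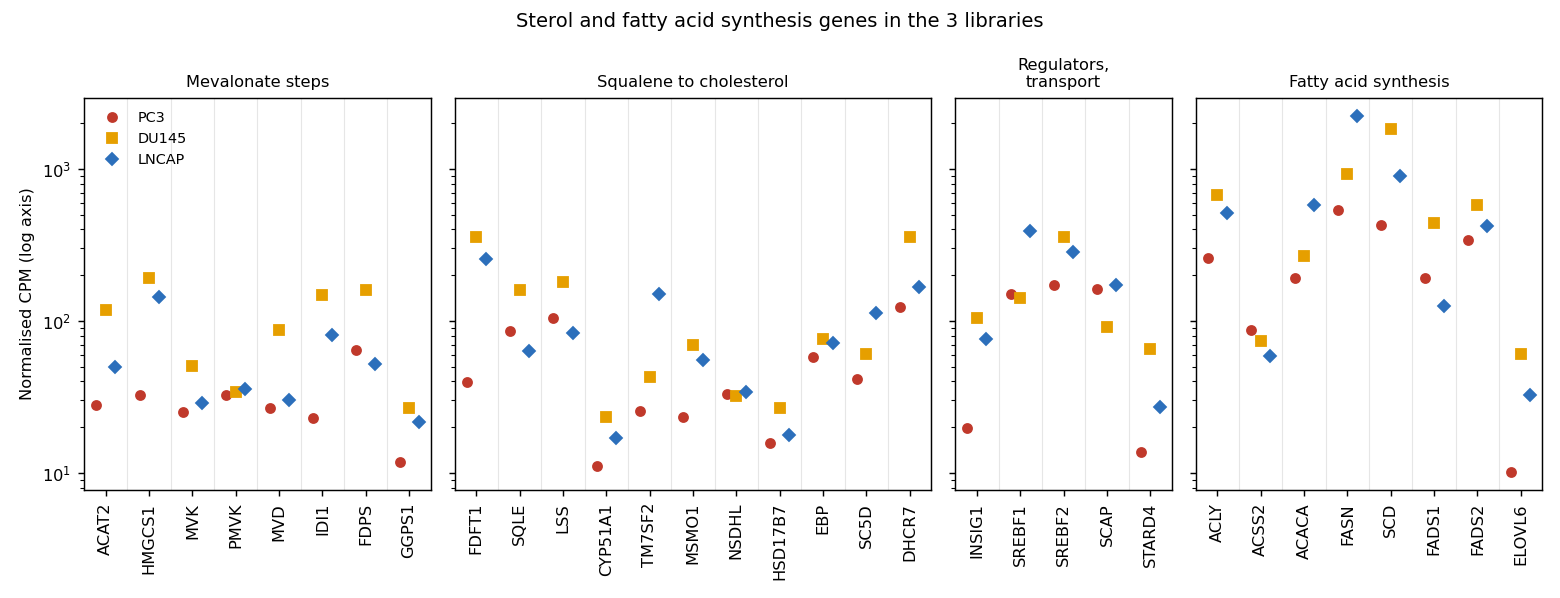
Normalised CPM on a log axis of each of the 32 genes, 1 point per library, grouped by step of the pathway, with PC3 as circles, DU145 as squares and LNCAP as diamonds. PC3 is the lowest point for 24 genes and DU145 the highest for 23, and FASN, ACACA, SREBF1 and TM7SF2 are highest in LNCAP.

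In the mevalonate steps 7 of 8 genes were at least 2-fold lower in PC3 than in DU145, and none was higher, against 19.3% and 18.5% of all genes tested. ACAT2, which makes acetoacetyl-CoA in the cytosol, stood at 28 CPM in PC3, 117 CPM in DU145 and 49.96 CPM in LNCAP. HMGCS1, which adds a further acetyl group, stood at 32.7 CPM in PC3, 193 CPM in DU145 and 143 CPM in LNCAP. It was 4.38-fold lower in PC3 than in LNCAP (95% counting interval 3.97 to 4.83) and 5.9-fold lower in PC3 than in DU145 (5.37 to 6.5), while DU145 and LNCAP were 1.35-fold apart (1.28 to 1.42). PC3 thus stood below the other 2 libraries, which were close to each other.

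IDI1, which interconverts the isoprene units, followed the same order, at 22.9 CPM in PC3, 147.5 CPM in DU145 and 81.05 CPM in LNCAP. It was 6.44-fold lower in PC3 than in DU145 (5.75 to 7.23) and 3.54-fold lower in PC3 than in LNCAP (3.14 to 4.0). MVD, which decarboxylates the mevalonate product to the first isoprene unit, stood at 26.7 CPM in PC3, 86.9 CPM in DU145 and 30.1 CPM in LNCAP. DU145 stood apart for this gene, 2.88-fold higher than LNCAP (2.59 to 3.21), while for PC3 against LNCAP the interval included 1. FDPS, which joins the units into farnesyl pyrophosphate, was likewise 3.06-fold higher in DU145 than in LNCAP (2.83 to 3.31), and stood at 64.05 CPM in PC3, 160 CPM in DU145 and 52.4 CPM in LNCAP. ACAT2 was 2.35-fold higher in DU145 than in LNCAP (2.16 to 2.56), 4.19-fold lower in PC3 than in DU145 (3.77 to 4.67), and 1.78-fold below LNCAP in PC3 (1.58 to 2.01), short of the threshold.

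Of the kinase genes, MVK passed the threshold in 1 comparison and PMVK in none. MVK stood at 25.2 CPM in PC3, 50.5 CPM in DU145 and 28.7 CPM in LNCAP, and its PC3 to DU145 ratio lay just past the threshold, at 2.01-fold lower (1.77 to 2.27). That call was lost with DESeq2 size factors, with library totals, with 5 added counts and on FPKM. PMVK stood at 32.4 CPM in PC3, 33.95 CPM in DU145 and 35.8 CPM in LNCAP, and no pair of libraries differed beyond counting error. GGPS1, which makes geranylgeranyl pyrophosphate for protein prenylation, stood at 11.8 CPM in PC3, 26.8 CPM in DU145 and 21.5 CPM in LNCAP, and was 2.26-fold lower in PC3 than in DU145 (1.9 to 2.71). That call was lost with 1 added to FPKM.

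Among the 11 genes from squalene to cholesterol, FDFT1 and TM7SF2 differed most between PC3 and LNCAP, and NSDHL, HSD17B7 and EBP were called in no pair. FDFT1, the squalene synthase gene that commits the pathway to sterols, stood at 39.6 CPM in PC3, 355 CPM in DU145 and 255 CPM in LNCAP. It was 8.97-fold lower in PC3 than in DU145 (8.25 to 9.77), the largest difference among the 32 genes in that comparison, and 6.45-fold lower in PC3 than in LNCAP (5.92 to 7.04), again the largest. The next enzyme genes, SQLE and LSS, followed its direction in PC3 against DU145 but not in PC3 against LNCAP. They were 1.85-fold (1.73 to 1.98) and 1.72-fold (1.61 to 1.83) lower in PC3 than in DU145, short of the threshold. Compared with LNCAP they were 1.37-fold (1.26 to 1.49) and 1.25-fold (1.16 to 1.34) higher in PC3. SQLE, the squalene epoxidase gene, stood at 86.4 CPM in PC3, 160 CPM in DU145 and 63.1 CPM in LNCAP, and LSS, the lanosterol synthase gene, at 105 CPM in PC3, 180 CPM in DU145 and 83.9 CPM in LNCAP. For both genes LNCAP was the lowest library, and DU145 was at least 2-fold higher than LNCAP, 2.54-fold for SQLE (2.36 to 2.73) and 2.14-fold for LSS (2.0 to 2.29).

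TM7SF2, which encodes a sterol reductase, was a gene of LNCAP rather than of DU145, at 25.4 CPM in PC3, 42.9 CPM in DU145 and 150 CPM in LNCAP. It was 5.92-fold lower in PC3 (5.31 to 6.61) and 3.5-fold lower in DU145 (3.21 to 3.82) than in LNCAP. SC5D, a sterol desaturase gene, had the same order of libraries, at 41.2 CPM in PC3, 60.8 CPM in DU145 and 112 CPM in LNCAP, and was 2.72-fold lower in PC3 than in LNCAP (2.48 to 2.98). For DU145 it was 1.85-fold apart (1.7 to 2.0) and missed the threshold. DHCR7, which encodes the reductase that makes cholesterol itself, stood at 124 CPM in PC3, 354 CPM in DU145 and 166 CPM in LNCAP. It was 2.13-fold higher in DU145 than in LNCAP (2.03 to 2.23) and 2.85-fold lower in PC3 than in DU145 (2.71 to 3.01).

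MSMO1, a sterol methyl oxidase gene, stood at 23.2 CPM in PC3, 69.4 CPM in DU145 and 55.3 CPM in LNCAP, and was 2.38-fold lower in PC3 than in LNCAP (2.1 to 2.7). CYP51A1, the lanosterol demethylase gene, stood at 11.2 CPM in PC3, 23.4 CPM in DU145 and 17.1 CPM in LNCAP, 2.09-fold lower in PC3 than in DU145 (1.74 to 2.53), a call that was lost with 1 added to FPKM. HSD17B7, a sterol ketoreductase gene, stood at 15.6, 26.6 and 17.85 CPM in PC3, DU145 and LNCAP and was called in no pair. EBP, a sterol isomerase gene, was called in no pair either, at 58.2, 75.8 and 71.45 CPM in PC3, DU145 and LNCAP. NSDHL, which acts with the demethylation steps, stood at 33.2, 31.9 and 34.35 CPM in PC3, DU145 and LNCAP, with each interval including 1.

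The regulators split, SREBF1 being highest in LNCAP and SREBF2 in DU145. SREBF1, whose product drives mainly fatty acid genes, stood at 151.5 CPM in PC3, 141 CPM in DU145 and 391 CPM in LNCAP. It was 2.58-fold lower in PC3 (2.46 to 2.71) and 2.78-fold lower in DU145 (2.64 to 2.92) than in LNCAP. SREBF2, whose product drives mainly cholesterol genes, stood at 171 CPM in PC3, 356 CPM in DU145 and 284 CPM in LNCAP, 2.08-fold lower in PC3 than in DU145 (1.99 to 2.18). Per length, SREBF1 stood at 0.833 times the level of SREBF2 in PC3 (0.787 to 0.881), 0.372 times in DU145 (0.354 to 0.391) and 1.29 times in LNCAP (1.25 to 1.35). LNCAP was thus the only library of the 3 with more SREBF1 than SREBF2 counts per listed gene length. The gene counts do not separate the SREBF1 isoforms, and SREBF1 is among the genes whose values are uncertain because of an overlap.

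INSIG1, whose product keeps SCAP in the endoplasmic reticulum and which is itself switched on by SREBP, stood at 19.8 CPM in PC3, 104 CPM in DU145 and 76.3 CPM in LNCAP. It was 5.27-fold lower in PC3 than in DU145 (4.66 to 5.97) and 3.85-fold lower in PC3 than in LNCAP (3.39 to 4.38). SCAP went the other way between the castration-resistant lines, at 161 CPM in PC3, 91.2 CPM in DU145 and 172 CPM in LNCAP, but its PC3 to DU145 difference of 1.77-fold (1.65 to 1.89) missed the threshold. STARD4, which carries sterol between membranes, stood at 13.7 CPM in PC3, 65.03 CPM in DU145 and 27.3 CPM in LNCAP. It was 4.73-fold lower in PC3 than in DU145 (4.08 to 5.52) and 2.38-fold higher in DU145 than in LNCAP (2.12 to 2.67). Its antisense partner STARD4-AS1 had 195 counts in PC3, against 52 in each of the other libraries, and without stated strand counting reads of the pair may be shared.

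The fatty acid genes held the most abundant transcripts of the set. FASN, the fatty acid synthase gene, stood at 535 CPM in PC3, 924 CPM in DU145 and 2238 CPM in LNCAP. It was 4.18-fold lower in PC3 (4.09 to 4.29) and 2.42-fold lower in DU145 (2.37 to 2.47) than in LNCAP. ACACA, the acetyl-CoA carboxylase gene that makes malonyl-CoA, had the same order, at 191 CPM in PC3, 267 CPM in DU145 and 581 CPM in LNCAP, 3.04-fold lower in PC3 (2.92 to 3.17) and 2.18-fold lower in DU145 (2.1 to 2.26). Among 19951 protein-coding genes ranked by FPKM, FASN was at rank 593 in PC3, 276 in DU145 and 70 in LNCAP.

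SCD, the desaturase gene that makes monounsaturated fatty acids, was highest in DU145 instead, at 428 CPM in PC3, 1833 CPM in DU145 and 894 CPM in LNCAP. It was 2.09-fold lower in PC3 (2.03 to 2.15) and 2.05-fold higher in DU145 (2.01 to 2.09) than in LNCAP, and 4.28-fold lower in PC3 than in DU145 (4.17 to 4.4). The DU145 call was lost when library totals were used without TMM factors. Per length, SCD stood at 1.4 times the level of FASN in PC3 (1.35 to 1.44), 3.46 times in DU145 (3.39 to 3.53) and 0.697 times in LNCAP (0.684 to 0.711), so the order of these genes within a line was reversed in LNCAP.

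ACLY, which makes cytosolic acetyl-CoA from citrate, stood at 260 CPM in PC3, 678 CPM in DU145 and 510 CPM in LNCAP, 2.61-fold lower in PC3 than in DU145 (2.52 to 2.71). ACSS2, which makes acetyl-CoA from acetate, was the gene of the set highest in PC3, at 87.3 CPM in PC3, 73.5 CPM in DU145 and 58.7 CPM in LNCAP, but no pair passed the 2-fold threshold. Per length ACLY stood at 3.07 times the level of ACSS2 in PC3 (2.88 to 3.27), 9.52 times in DU145 (8.96 to 10.1) and 8.97 times in LNCAP (8.38 to 9.62). PC3 was therefore the library in which these acetyl-CoA genes were closest to each other.

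ELOVL6, which lengthens fatty acids, stood at 10.1 CPM in PC3, 61.07 CPM in DU145 and 32.6 CPM in LNCAP. It was 6.06-fold lower in PC3 than in DU145 (5.11 to 7.23) and 3.24-fold lower in PC3 than in LNCAP (2.7 to 3.9). FADS1, a desaturase gene of polyunsaturated fatty acids, stood at 191 CPM in PC3, 439 CPM in DU145 and 125 CPM in LNCAP, 3.51-fold higher in DU145 than in LNCAP (3.34 to 3.7), about the size of the TM7SF2 difference in the other direction. FADS2, the desaturase gene of the step before, stood at 340 CPM in PC3, 578 CPM in DU145 and 419 CPM in LNCAP and was called in no pair. In the files' GRCh38 coordinates the model of FADS1 (chromosome 11, 61799625 to 61829318) lies wholly inside that of FADS2 (61792980 to 61867354) on the opposite strand, and with no strand setting given their values are uncertain.

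PC3 against LNCAP set 1 castration-resistant line beside the androgen-dependent one. Of the 32 genes 12 were at least 2-fold lower and none was higher, against 23.6% of all genes tested lower, 22.6% higher and 46.2% either way. At a 4-fold threshold 4 were lower, HMGCS1, FDFT1, TM7SF2 and FASN, and none was higher, against 13.4% of all genes tested lower, 13.0% higher and 26.4% either way. The median log2 ratio of the 32 genes was -0.78, and that of all genes tested was -0.01. By group the median was -0.51 for the mevalonate steps, -0.42 for squalene to cholesterol, -0.99 for regulators and transport and -1.02 for fatty acid synthesis.

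In DU145 against LNCAP 9 of the 32 genes were higher and 4 were lower, against 22.9% and 23.1% of all genes tested. Together 13 were called, against 46.0% of all genes tested, so the share called was not above the background. No gene of the set was 4-fold apart, against 25.8% of all genes tested (13.7% higher and 12.1% lower). The genes that were higher were ACAT2, MVD, FDPS, SQLE, LSS, DHCR7, STARD4, SCD and FADS1, and those that were lower were TM7SF2, SREBF1, ACACA and FASN. The median log2 ratio was 0.45, against 0.0 for all genes tested, with 0.84 for the mevalonate steps, 0.45 for squalene to cholesterol, 0.33 for regulators and transport and 0.44 for fatty acid synthesis. Both comparisons share the LNCAP library, and the same 4 genes, TM7SF2, SREBF1, ACACA and FASN, were called lower in both, against 14.5% of all genes tested. None was called higher in both, against 12.8% of all genes tested. SCD was called lower in PC3 and higher in DU145, against 1.27% of all genes tested, and none the other way round, against 1.19%.

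PC3 against DU145, which does not use LNCAP, compared the castration-resistant lines with each other. Of the 32 genes 18 were at least 2-fold lower in PC3 and none was higher, against 19.3% of all genes tested lower, 18.5% higher and 37.8% either way. At 4-fold 8 were lower and none higher, against 10.6% and 8.54% of all genes tested and 19.1% either way, and the 8 were ACAT2, HMGCS1, IDI1, FDFT1, INSIG1, STARD4, SCD and ELOVL6. The median log2 ratio was -1.06, against 0 for all genes tested. It was -1.51 for the mevalonate steps, -0.78 for squalene to cholesterol, -1.06 for regulators and transport and -0.99 for fatty acid synthesis.

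**Figure D2:**
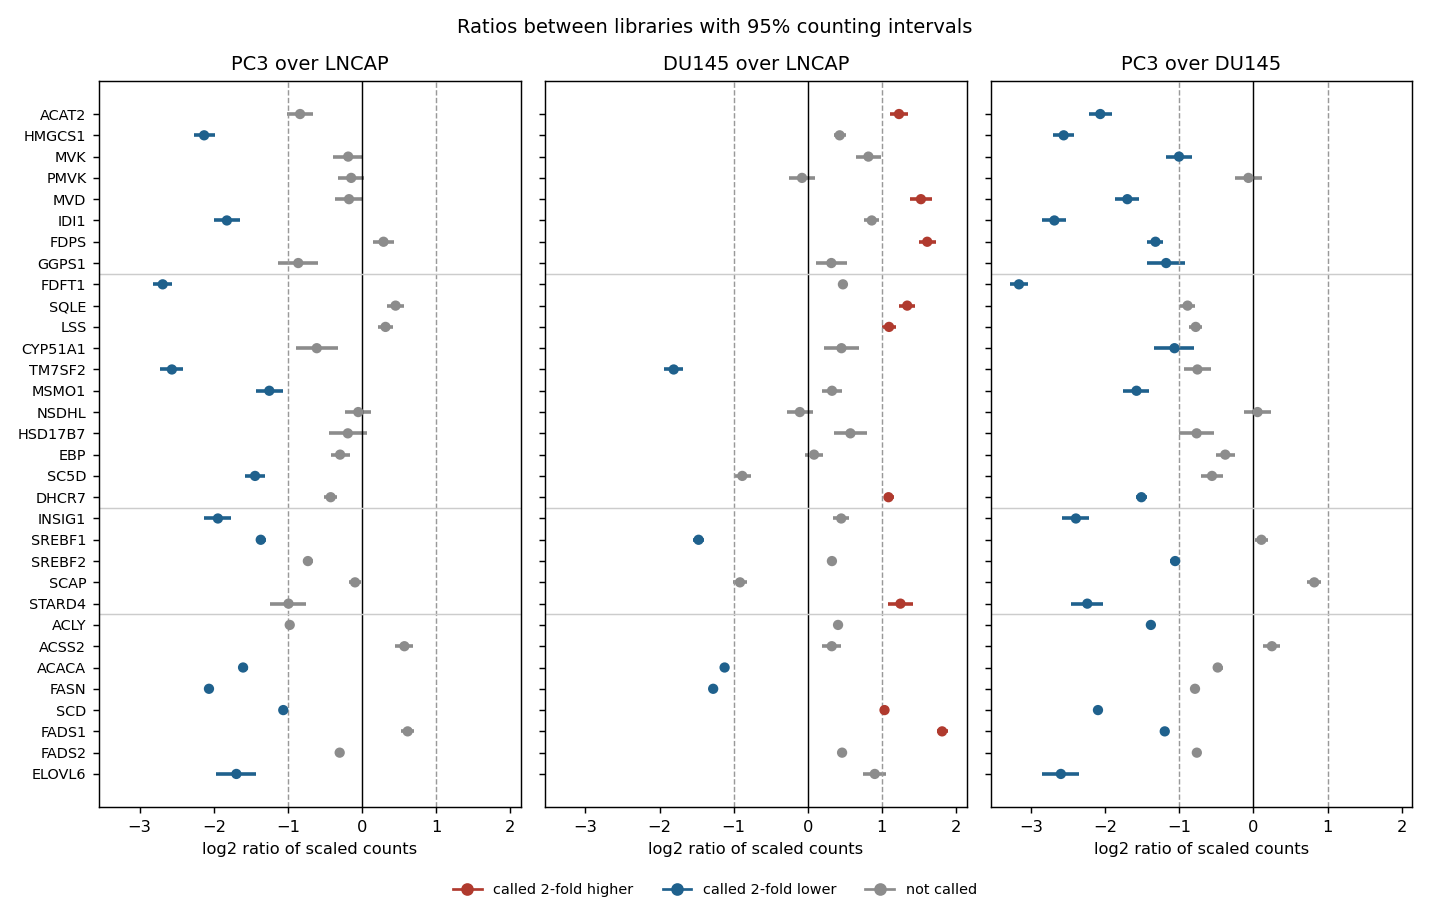
Log2 ratio of scaled counts for each gene in PC3 over LNCAP, DU145 over LNCAP and PC3 over DU145, as points with 95% counting intervals, with dashed lines at 2-fold and coloured points for called genes. No gene is called higher in PC3 in either panel that holds it, and 12 and 18 are called lower there, while DU145 over LNCAP holds 9 higher and 4 lower.

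For the class comparison PC3 and DU145 were taken as 2 libraries of the castration-resistant class against LNCAP. The spread in such a fit is the difference between these 2 lines, and the androgen-dependent class has 1 library. Its p-values therefore do not measure the spread between cultures, or among lines of either class. edgeR's quasi-likelihood test with Benjamini-Hochberg adjustment called none of the 32 genes, and it called 0 of the 18025 genes tested (0.0%). At an unadjusted p under 0.05 it passed 1 of the 32 genes and 1746 of all genes tested (9.69%). That gene was TM7SF2, at a log2 difference of -2.14 with an unadjusted p of 0.0253 and an edgeR adjusted p of 0.439, lower in both castration-resistant libraries. SREBF1, FASN and ACACA followed, with log2 differences of -1.42, -1.62 and -1.34. DESeq2 called none of the 32 and 1306 of 14879 genes with an adjusted p (8.78%), its smallest adjusted p among the 32 being 0.0758, and limma-voom called none of all genes tested.

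Summed FPKM, the authors' count scaled for gene length and depth, gave the level of each group of genes per length. The 8 mevalonate genes summed to 73.4 FPKM in PC3, 205 FPKM in DU145 and 117 FPKM in LNCAP. The 11 genes from squalene to cholesterol summed to 141 FPKM in PC3, 322 FPKM in DU145 and 249 FPKM in LNCAP. The 8 fatty acid genes summed to 267 FPKM in PC3, 707 FPKM in DU145 and 603 FPKM in LNCAP. PC3 was lowest in each of these sums, and DU145 was highest in each. For the fatty acid genes the order of DU145 and LNCAP depended on the measure. As a share of all counts, not scaled for length, they took 0.204% in PC3, 0.479% in DU145 and 0.493% in LNCAP. The 5 regulator and transport genes summed to 73.9 FPKM in PC3, 119 FPKM in DU145 and 136 FPKM in LNCAP. That sum was highest in LNCAP, as were SREBF1 and SCAP, while INSIG1, SREBF2 and STARD4 were each highest in DU145. Together the 32 genes took 0.336% of all counts in PC3, 0.77% in DU145 and 0.739% in LNCAP. The single most abundant of them per length was SCD at 79.2 FPKM in PC3, SCD at 341 FPKM in DU145 and FASN at 235 FPKM in LNCAP.

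**Figure D3:**
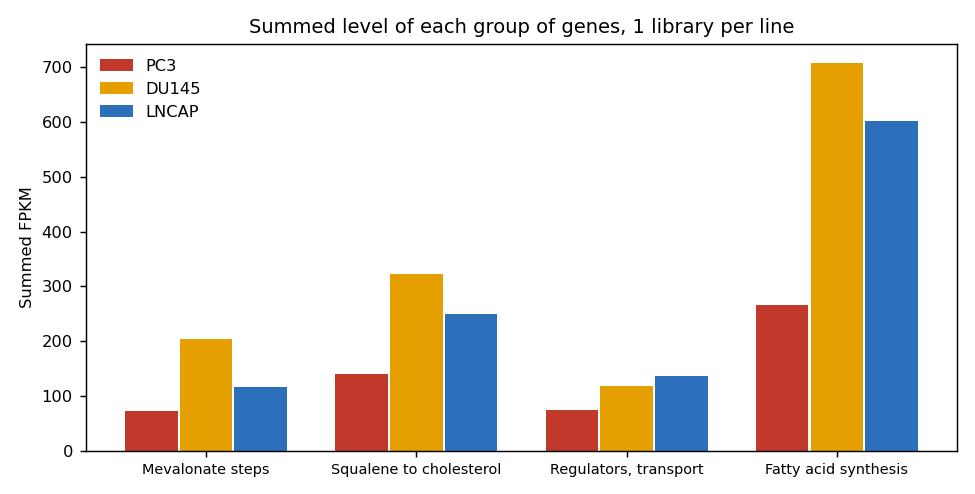
Summed FPKM of the genes of each group, 1 bar per library and no error since each line has 1 library. The fatty acid bars reach 267 in PC3, 707 in DU145 and 603 in LNCAP, and the regulator bars are the only ones in which LNCAP is highest.

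Genes around the pathway were read from 6 further lists. The shares of all genes tested to set beside their counts were 22.6% higher and 23.6% lower in PC3 against LNCAP, 22.9% higher and 23.1% lower in DU145 against LNCAP, and 18.5% higher and 19.3% lower in PC3 against DU145. Of 11 genes of SREBP processing and turnover 1 was higher and 2 were lower in PC3 than in LNCAP, and 4 were higher and 3 lower in DU145 than in LNCAP. In PC3 against DU145 2 were higher and 2 lower. ERLIN1, which acts in protein degradation at the endoplasmic reticulum, stood at 48.35 CPM in PC3, 121 CPM in DU145 and 24.6 CPM in LNCAP. It was 4.93-fold higher in DU145 than in LNCAP (4.42 to 5.52), and ERLIN2 was 2.72-fold lower in PC3 (2.51 to 2.95) and 2.62-fold lower in DU145 (2.42 to 2.83). MBTPS2, the gene of a protease that releases SREBP, was 3.0-fold higher in PC3 than in DU145 (2.7 to 3.33).

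Of 19 genes of sterol uptake, storage, sensing and efflux 5 were higher and 6 lower in PC3 than in LNCAP, and 6 were higher and 3 lower in DU145 than in LNCAP. In PC3 against DU145 2 were higher and 8 lower. GRAMD1B, which encodes a sterol transfer protein at membrane contacts, stood at 416 CPM in PC3, 429 CPM in DU145 and 0.64 CPM in LNCAP. ABCA1, a cholesterol exporter gene, was 17.9-fold higher in PC3 than in LNCAP (12.1 to 27.4). It stood at 30.9 CPM in PC3, 13.0 CPM in DU145 and 1.73 CPM in LNCAP. ABCG1, another exporter gene, stood at 14.4 CPM in PC3, 0.638 CPM in DU145 and 12.9 CPM in LNCAP. ABCG1 was thus 20.25-fold lower in DU145 than in LNCAP (10.8 to 42.9), while for PC3 against LNCAP the interval included 1. The lipoprotein receptor gene VLDLR stood at 5.3 CPM in PC3, 45.3 CPM in DU145 and 16.8 CPM in LNCAP, which is the order of most of the 32 genes. TMEM97, which encodes a membrane protein that binds the cholesterol exporter of lysosomes, was 5.99-fold lower in PC3 than in LNCAP (5.32 to 6.77). NCEH1, a cholesteryl ester hydrolase gene, was 9.15-fold higher in DU145 than in LNCAP (8.43 to 9.96).

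Of 24 genes of fatty acid supply, activation and elongation 5 were higher and 10 lower in PC3 than in LNCAP, and 6 were higher and 9 lower in DU145 than in LNCAP. In PC3 against DU145 3 were higher and 5 lower. The acyl-CoA synthetase genes went opposite ways, ACSL1 being 9.14-fold lower in PC3 (8.31 to 10.1) and 19.65-fold lower in DU145 (17.2 to 22.6) than in LNCAP, and ACSL4 11.7-fold higher in PC3 (9.74 to 14.2) and 15.9-fold higher in DU145 (13.3 to 19.2). Of the elongases, ELOVL7 had no counts in PC3, at least 1010-fold lower than LNCAP when 3 counts are taken as the floor (the 95% counting interval starts at 821-fold), and stood at 15.7 CPM in DU145 and 198 CPM in LNCAP. ELOVL2 stood at 30.2 CPM in PC3, 65.5 CPM in DU145 and 2.05 CPM in LNCAP. Of 12 glycerolipid genes 5 were higher and 2 lower in PC3 and 4 higher and 2 lower in DU145 than in LNCAP, among them PLIN2, the lipid droplet coat gene, at 43.96 CPM in PC3, 31.7 CPM in DU145 and 0.128 CPM in LNCAP (2 counts), a PC3 to LNCAP ratio of 344 (94.8 to 2843). In PC3 against DU145 2 glycerolipid genes were higher and none lower. Of 17 measured genes of fatty acid oxidation 10 were lower and 1 higher in PC3, and 9 lower and 2 higher in DU145, than in LNCAP. In PC3 against DU145 3 were higher and none lower. CPT1A, which admits fatty acids to mitochondria, was 5.72-fold lower in DU145 than in LNCAP (5.28 to 6.2), and CPT2 was 3.5-fold lower in PC3 than in LNCAP (3.0 to 4.1).

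The fatty acid oxidation genes had a median log2 ratio of -1.07 in PC3 and -1.22 in DU145 against LNCAP, and -0.03 in PC3 against DU145. The 32 synthesis genes had medians of -0.78, 0.45 and -1.06 in the same comparisons, so the lists were placed differently between the castration-resistant lines. Of 12 genes of isoprenoid use 1 was higher and 2 were lower in PC3 than in LNCAP, and 1 was higher and 1 lower in DU145 than in LNCAP. In PC3 against DU145 1 was higher and none lower. FNTB, a farnesyltransferase subunit gene, was 3.85-fold higher in PC3 than in LNCAP (3.12 to 4.78), and RABGGTA, a gene of the enzyme that prenylates Rab proteins, was 2.3-fold lower in PC3 (2.03 to 2.62) and 3.28-fold lower in DU145 (2.84 to 3.8).

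**Figure D4:**
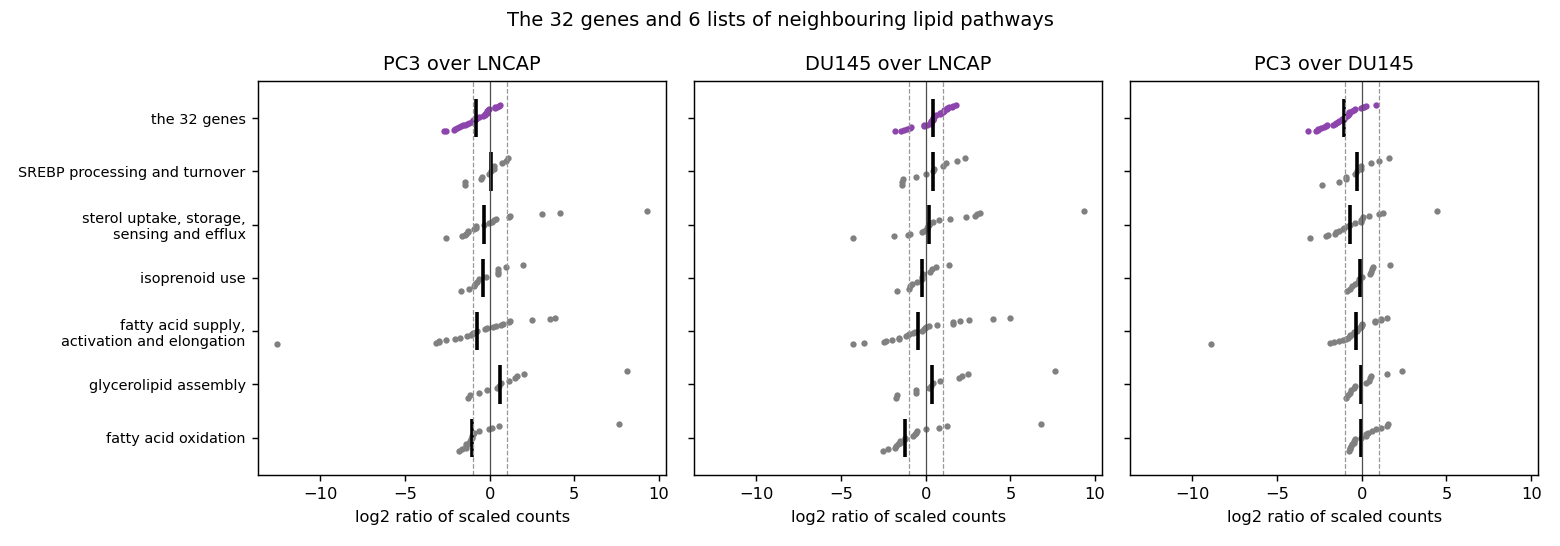
Log2 ratio of scaled counts, with 0.5 counts added, for each measured gene of the 32 synthesis genes and of 6 neighbouring lists, as points with a bar at the median and dashed lines at 2-fold. In PC3 over DU145 the 32 genes have a median of -1.06 and fatty acid oxidation one of -0.03, and the far left point of the PC3 panels is ELOVL7, which had no counts in PC3.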

How the data were processed

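PC3, DU145 and LNCAP were each measured in 1 RNA sequencing library. Whole-number read counts per gene and FPKM values were deposited by the authors, and the deposited FPKM of genes with at least 100 counts (10903 in PC3, 11043 in DU145 and 10851 in LNCAP) equalled the count over gene length and 1 constant per library, to 6 digits. Cuffdiff 2.1.1, Cufflinks 2.1.1, TopHat2 2.0.9 and Bowtie2 2.0.6 are named, with no roles, per the submitters' processing notes. Not given in the sources used here are the counting program, its strand setting and the build. Gene IDs and coordinates were the same as in GENCODE release 29 (GRCh38) for 58698 of 58735 IDs and for all 32 genes.

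Genes that reached 1 CPM in any library were tested. TMM factors (edgeR 4.0.16 in R 4.3.3) were 0.998, 0.987 and 1.02 for PC3, DU145 and LNCAP. Ratios received exact 95% conditional binomial (Clopper-Pearson) intervals, computed with scipy 1.17.1 (with numpy 2.4.6 and pandas 2.3.3 under Python 3.11.15). Intervals cover counting error only, since each line has 1 library. Reads carry no molecular identifiers, so PCR copies would count as separate reads and the intervals may be too narrow. A count of 0 was set to 3 counts for a bound. The class test was edgeR's quasi-likelihood test with 1 residual degree of freedom, with DESeq2 1.42.0 and limma 3.58.1 as alternatives. Both steps were tested on simulated data. The counts simulated for the class test held no spread between lines, so that run does not show how the test performs here.

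Members and lists were chosen with earlier results of these data known. All 32 genes are named. Genes of the other lists come from those with the largest near interval bound, at most 2 higher and 2 lower per comparison. One gene that this rule names is not reported here.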

Additional observations from a re-analysis of the deposited data

Results flagged for a closer look

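SCD was the 1 gene of the 32 called 2-fold lower in PC3 and 2-fold higher in DU145 than in LNCAP, with log2 ratios of -1.06 in PC3 and 1.04 in DU145. Of all genes tested 1.27% were called in this pair of directions. The difference between the lines was not tested, since each line has 1 library, and both ratios lie close to the 2-fold threshold and share the LNCAP library.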

How the results depend on the processing

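At a 4-fold threshold the genes called numbered 4 in PC3 against LNCAP (4 lower), 0 in DU145 against LNCAP (0 higher, 0 lower) and 8 in PC3 against DU145 (8 lower). The shares of all genes tested at 4-fold were 26.4%, 25.8% and 19.1%. A further setting, chosen after seeing the data, left out the 13 genes that overlap others or have near copies. Of the genes left, 9 were lower and 0 higher in PC3 than in LNCAP, against 23.6% and 22.6% of all genes tested. In DU145 against LNCAP 6 were called (4 higher and 2 lower), against 46.0% of all genes tested (22.9% and 23.1%). In PC3 against DU145 10 were lower, against 19.3% of all genes tested. The median class log2 difference was -0.03, 0.45 without PC3 and -0.78 without DU145, values with no test. With library totals ACLY and STARD4 were also called in PC3 against LNCAP, and SCD was no longer called in DU145. Under the other scalings, filters, added counts and FPKM no further call changed, apart from MVK, GGPS1 and CYP51A1 in PC3 against DU145. No called gene changed direction under the alternatives tried. No paired analysis was possible because each line has 1 library. With 1 library per line, depth was not the limit; the spread between cultures was not measured.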

Other observations

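LBR, whose product can carry out the same sterol reduction as that of TM7SF2, was looked up after the values of TM7SF2 were seen. LBR stood at 7.08 FPKM in PC3, 33.4 FPKM in DU145 and 9.86 FPKM in LNCAP, and TM7SF2 at 7.39 FPKM in PC3, 12.6 FPKM in DU145 and 43.3 FPKM in LNCAP. LBR was thus highest in DU145 and TM7SF2 in LNCAP, and both were near the same level per length in PC3.

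In GRCh38 ACLY lies on chromosome 17 (41866908 to 41930542), before a stretch that starts with DHX58 (42101404 to 42112733) and KAT2A (42113108 to 42121358), both with no counts in PC3. KAT2A stood at 124 CPM in DU145 and 140 CPM in LNCAP. Of the genes between, CNP stood at 77.3 CPM in PC3, 122 CPM in DU145 and 105 CPM in LNCAP, and NKIRAS2 at 33.8 CPM in PC3, 43.9 CPM in DU145 and 73.3 CPM in LNCAP, so ACLY and these neighbours were all read in PC3. This region was looked up after its values were seen.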
